A study of Mus musculus with 6 samples.

Results

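The GDNF family of neurotrophic signals comprises 9 genes in the mouse, 4 ligands and 5 receptor genes, and all 9 were found by their symbols among the 32285 genes of the count tables. The ligands GDNF, neurturin (Nrtn), artemin (Artn) and persephin (Pspn) each bind preferentially to one membrane-anchored coreceptor, GFRα1, GFRα2, GFRα3 and GFRα4 respectively, and the ligand-coreceptor complex then activates the shared receptor tyrosine kinase Ret. A cell therefore needs Ret together with a coreceptor to respond in the classical way, whereas a coreceptor can also be carried by cells without Ret. In the autonomic nervous system the family is known for the migration, survival and target innervation of sympathetic, parasympathetic and enteric neurons. Each of the 9 had at least 1 count in every library, though Gdnf in the stellate and Pspn in the lumbar library had 1 in all kept cells. The counts were read across the neuron types, the glia and the other cells of each ganglion.

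The cells came from whole ganglia, with no sort described, of pups of both sexes at postnatal day 5. The pups behind every library carried a Cre transgene and a tdTomato reporter at the Rosa locus, so that there is no group without them. There was 1 library each from the stellate, coeliac and lumbar sympathetic ganglia and from the parasympathetic sphenopalatine ganglion, and 2 from the pelvic ganglion, which the submitters treat as biological replicates. The series calls the stellate, sphenopalatine and pelvic 1 libraries its first batch and the coeliac, lumbar and pelvic 2 libraries its second, and the 10x chemistry differed between them, so the pelvic ganglion alone is present in both.

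After filtering, 21442 cells remained, with 37297629 to 103139097 UMIs (unique molecular identifiers, one per captured transcript) a library. Of these, 7052 were neurons, 6747 glia, 1839 fibroblasts, 724 endothelial cells, 548 mural cells (pericytes and smooth muscle) and 529 macrophages, named by marker genes with the 9 family members kept out of the clustering. Levels are given as CPM, the UMIs of a gene in 1000000 UMIs of all genes summed over a cell class in 1 library, with an exact Poisson 95% interval that covers counting error only. Th, the first enzyme of noradrenaline synthesis, stood at 994, 658 and 452 CPM in the neurons of the stellate, coeliac and lumbar libraries and at 1.85 in the sphenopalatine neurons, where the vesicular acetylcholine transporter Slc18a3 was at 262. Between 1 and 49 cell barcodes were shared by any pair of libraries of the same batch and at most 1 across batches, and leaving the sharing cells out changed no call on a family member. Counts from transcript ends are not scaled by length, so levels are compared between cells and not between genes.

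Ret, the signalling receptor (chromosome 6, 118151745 to 118197718, minus strand, GRCm38), was highest in neurons in all 6 libraries. Taken as a whole, the sphenopalatine and pelvic neurons held more of it than the sympathetic ones. Of its 76470 UMIs, 94.0% lay in neurons. The neurons of the 3 sympathetic libraries held 89.2 (stellate; interval 87.2 to 91.3), 83.2 (coeliac; 79.0 to 87.5) and 98.1 (lumbar; 95.8 to 100.4) CPM. The sphenopalatine neurons held 302 (298 to 306), and the pelvic neurons 532 (525 to 540) and 370 (364 to 377). No sympathetic library came near the sphenopalatine or pelvic ones, while the pelvic libraries differed from each other by more than counting error. At least 1 Ret UMI was found in 53.2% to 67.7% of sympathetic neurons and in 96.9% to 98.1% of sphenopalatine and pelvic neurons, but median depth per neuron ranged from 26651 to 108598 UMIs; in cells thinned to 2000 UMIs the shares were 8.02% to 13.4% and 36.8% to 55.7%.

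Within a ganglion, Ret followed the transmitter. Cholinergic neurons held 386 CPM of Ret in the stellate, 344 in the lumbar, 590.5 in the pelvic 1 and 400.2 in the pelvic 2 library. Noradrenergic neurons of the same libraries held 75.2, 77.7, 202 and 157, so that cholinergic neurons were higher by 5.13, 4.43, 2.93 and 2.54 times, in 4 of 4 libraries. The edgeR quasi-likelihood test with library as a block gave a log2 fold change of 1.82 ± 0.15 (SE) and a Benjamini-Hochberg adjusted p of 0.0013; all later adjusted p are of this kind unless DESeq2 is named. In this comparison 7 of the 9 members had enough counts to be tested and 2, Ret and Gfra4, were called, both higher, where 4.35% of the 14648 genes tested were called higher and 7.94% in either direction. The median over the 7 members was 0.77, beside −0.03 over all genes. The transmitter was read from marker genes of clusters made from the same cells without the family members, and how many animals were pooled for a library is not given, so that p-values measure the spread between these libraries only. The cholinergic neurons of the stellate and lumbar libraries were 26 and 52 cells, in clusters led by Vip and Sst among others, and the 1651 cholinergic sphenopalatine neurons held 309 (304 to 313).

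Noradrenergic neurons were themselves uneven in Ret. In the stellate library the 7 noradrenergic clusters ran from 27.1 to 101 CPM, in the lumbar library 5 clusters from 10.9 to 145, and in the coeliac library 3 clusters from 29.9 to 173. The lumbar cluster lowest in Ret (248 cells, led by Mgat4c, Spata13 and Arhgap36) was the highest of that library in Gfra3, at 176. Sphenopalatine cholinergic clusters spanned 135 to 662, the highest being led by Adgrg6, Lynx1 and Htr3b. Ret thus varied widely between clusters of 1 transmitter in each of these ganglia.

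In glia, Ret UMIs were few. Glia held 15.6, 3.93, 4.70, 20.1, 33.4 and 12.3 CPM in the stellate, coeliac, lumbar, sphenopalatine, pelvic 1 and pelvic 2 libraries, that is 17.5%, 4.73%, 4.79%, 6.65%, 6.28% and 3.32% of the level in the neurons of the same library. Stmn2, a neuronal cytoskeleton gene, reached in the same glia 19.3%, 4.12%, 3.46%, 10.7%, 8.30% and 3.11% of its neuronal level. The part of free or neighbouring neuronal RNA in these glial Ret counts was not tested. Ret was higher in neurons than glia by a log2 fold change of 4.07 ± 0.32 (adjusted p = 7.5e-06), in 6 of 6 libraries. Of the 9 members 6 had enough counts for that test, and 4 were called, Ret and Gfra4 higher and Gfra1 and Nrtn lower, where 73.5% of 15222 genes were called, so that the members' share lies near the background.

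Gfra1, the GDNF coreceptor (chromosome 19, 58235604 to 58455909, minus strand; the gene Gm16277 lies within the same interval on the plus strand), was counted in fibroblasts, glia and the sphenopalatine and pelvic neurons. Sympathetic neurons had 19, 3 and 6 UMIs in the stellate, coeliac and lumbar libraries, out of 79382522, 17981802 and 72358392 UMIs of all genes. The sphenopalatine neurons held 9.83 CPM (9.13 to 10.6) and the pelvic neurons 6.08 and 6.58. Fibroblasts carried 29.7, 27.5, 31.7, 26.6, 15.4 and 21.3 and glia 11.9, 19.1, 15.6, 8.39, 11.7 and 18.5 in the order given above. The values of the sympathetic fibroblasts all lay above those of the others, though the sphenopalatine interval overlapped theirs. Ganglia were not tested against each other for fibroblasts, and their clusters differed: the Dpt-positive cluster, low in Gfra1, supplied 298 of 381 and 172 of 223 pelvic fibroblasts and 24 of 532 stellate ones.

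Across all 6 libraries Gfra1 was lower in neurons than glia (log2 fold change −3.10 ± 1.16, adjusted p = 0.038). The call was lost without the stellate, the coeliac or the lumbar library (adjusted p = 0.10, 0.089 and 0.070), without the block (0.10), without the filter on low counts (0.085) and with glia chosen by marker score (0.052). In the sphenopalatine library the neurons stood 1.17 times above the glia. Among pelvic neurons the highest level was in cluster 5, 107 cholinergic cells led by Areg, Cartpt and Nrn1 that were assigned to none of the P1 to P4 types. It held 41.3 (33.8 to 49.9) and 37.6 (31.1 to 45.2) CPM in the pelvic 1 and 2 libraries, and 65.8% and 70.6% of its cells had a Gfra1 UMI. Next came cluster 3, a P1-like cluster led by Fst and Htr7, at 10.5 and 10.9. In the sphenopalatine ganglion, clusters 2, 5 and the unnamed 9 held 22.0, 18.8 and 22.7, against 0.37 in cluster 3 and 0.39 in cluster 10.

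Gfra2, the neurturin coreceptor (chromosome 14, 70890120 to 70979838, plus strand), marked cholinergic neurons and glia. Cholinergic neurons held 256, 154, 233, 216 and 145 CPM in the stellate, lumbar, sphenopalatine, pelvic 1 and pelvic 2 libraries. Noradrenergic neurons held 34.6 in the stellate, 7.20 in the coeliac, 13.3 in the lumbar, 4.83 in the pelvic 1 and 2.12 in the pelvic 2 library. By cluster the ranges overlapped: stellate noradrenergic cluster 4 held 81.8, above pelvic cholinergic cluster 6 at 78.2 and 66.6. Within libraries the cholinergic neurons were higher by 7.39 times in the stellate, 11.55 in the lumbar, 44.7 in the pelvic 1 and 68.4 in the pelvic 2 library. The edgeR log2 fold change of 4.14 ± 0.73 missed the threshold (adjusted p = 0.061), and DESeq2 on the same sums gave 4.43 with an adjusted p of 3.3e-08.

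The noradrenergic clusters highest in Gfra2 were in the stellate ganglion, where clusters 4 and 6 (294 cells led by Ptprg, Slc18a1 and Pde10a, and 223 cells led by Uts2b, Cited1 and Clu) held 81.8 and 77.0 CPM, with Gfra3 at 9.58 and 8.04. The other noradrenergic stellate clusters held 7.355 to 43.7 of Gfra2. The highest noradrenergic cluster of the lumbar library reached 26.5 and that of the coeliac library 9.57.

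In glia, Gfra2 stood at 145, 149.6, 140.2, 142, 187 and 139 CPM, the highest and the lowest value both being from pelvic libraries. It was detected in 39.6% to 78.8% of glial cells (median depth 3408 to 12035 UMIs), against 0% to 10.6% of macrophages (6067 to 16819 UMIs). In cells thinned to 2000 UMIs the glial shares were 22.3% to 30.5%. Glia were higher than the mean of the other non-neuronal classes by a log2 fold change of 3.02 ± 0.18 (adjusted p = 1.9e-13). Neurons and glia did not pass the test of their difference over the 6 libraries (−1.21 ± 0.67, adjusted p = 0.14). Glia exceeded neurons 21.5 times in the coeliac, 6.15 times in the lumbar and 3.64 times in the stellate library, while pelvic glia stood at 0.967 and 1.05 times the neurons and sphenopalatine glia at 0.622 times.

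Gfra3, the artemin coreceptor (chromosome 18, 34689898 to 34720387, minus strand), was high in noradrenergic neurons and in glia. Noradrenergic neurons held 49.4 (stellate), 36.5 (coeliac), 99.9 (lumbar), 172 (pelvic 1) and 169 (pelvic 2) CPM, while cholinergic neurons held 1.79 (stellate, 2 UMIs), 12.7 (lumbar), 0.565 (sphenopalatine), 1.22 (pelvic 1) and 0.35 (pelvic 2). Noradrenergic neurons were 7.86 times higher in the lumbar library, 141 times in the pelvic 1 and 486 times in the pelvic 2 library. By cluster the ranges overlapped: stellate noradrenergic cluster 6 held 8.04, below lumbar cholinergic cluster 6 at 12.7. The log2 fold change of cholinergic over noradrenergic neurons, −6.17 ± 1.41, missed the threshold (edgeR, adjusted p = 0.11), passed it without the lumbar library (−7.67, 0.011), and passed it with DESeq2 (−6.06, 4.8e-07).

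In glia Gfra3 stood at 105, 110.02, 102, 192, 174 and 86.9 CPM, so that the sphenopalatine library, whose neurons had 55 Gfra3 UMIs in all, had the highest glial value. Glia exceeded the other non-neuronal classes by a log2 fold change of 5.45 ± 0.26 (adjusted p = 4.1e-15), and glial levels were 1.10 to 265 times those of the neurons of the same library. The difference from neurons across libraries had an adjusted p of 0.060 (−2.05 ± 0.87) and one of 0.0098 without the sphenopalatine library (−1.43). Outside neurons and glia, Gfra3 was also counted in 2 unnamed clusters led by the chromogranins Chga and Chgb, which are secretory granule proteins (162 and 141 cells; 126 and 162 CPM).

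Gfra4, the persephin coreceptor (chromosome 2, 131039632 to 131043088, minus strand, with the microRNA gene Mir6973b on the same strand within it), was mainly neuronal, with 87.4% of its UMIs in neurons. Neurons held 25.7, 13.2, 15.5, 39.7, 33.1 and 24.7 CPM, and glia 0.67 to 3.80, which is 4.33% to 12.1% of the neuronal level, beside 3.11% to 19.3% for Stmn2. The neuron-glia log2 fold change was 3.69 ± 0.24 (adjusted p = 2.6e-06). Cholinergic neurons were 1.47 to 2.02 times higher than noradrenergic ones in 4 of 4 libraries (log2 fold change 0.77 ± 0.15, adjusted p = 0.022; 0.098, 0.052 and 0.077 without the pelvic 1, lumbar and pelvic 2 library, and 0.28 without the block). Fibroblasts held 5.09 to 15.6, at 20.6% to 71.8% of the neuronal level, where Stmn2 was at 1.05% to 11.7%.

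**Figure D1:**
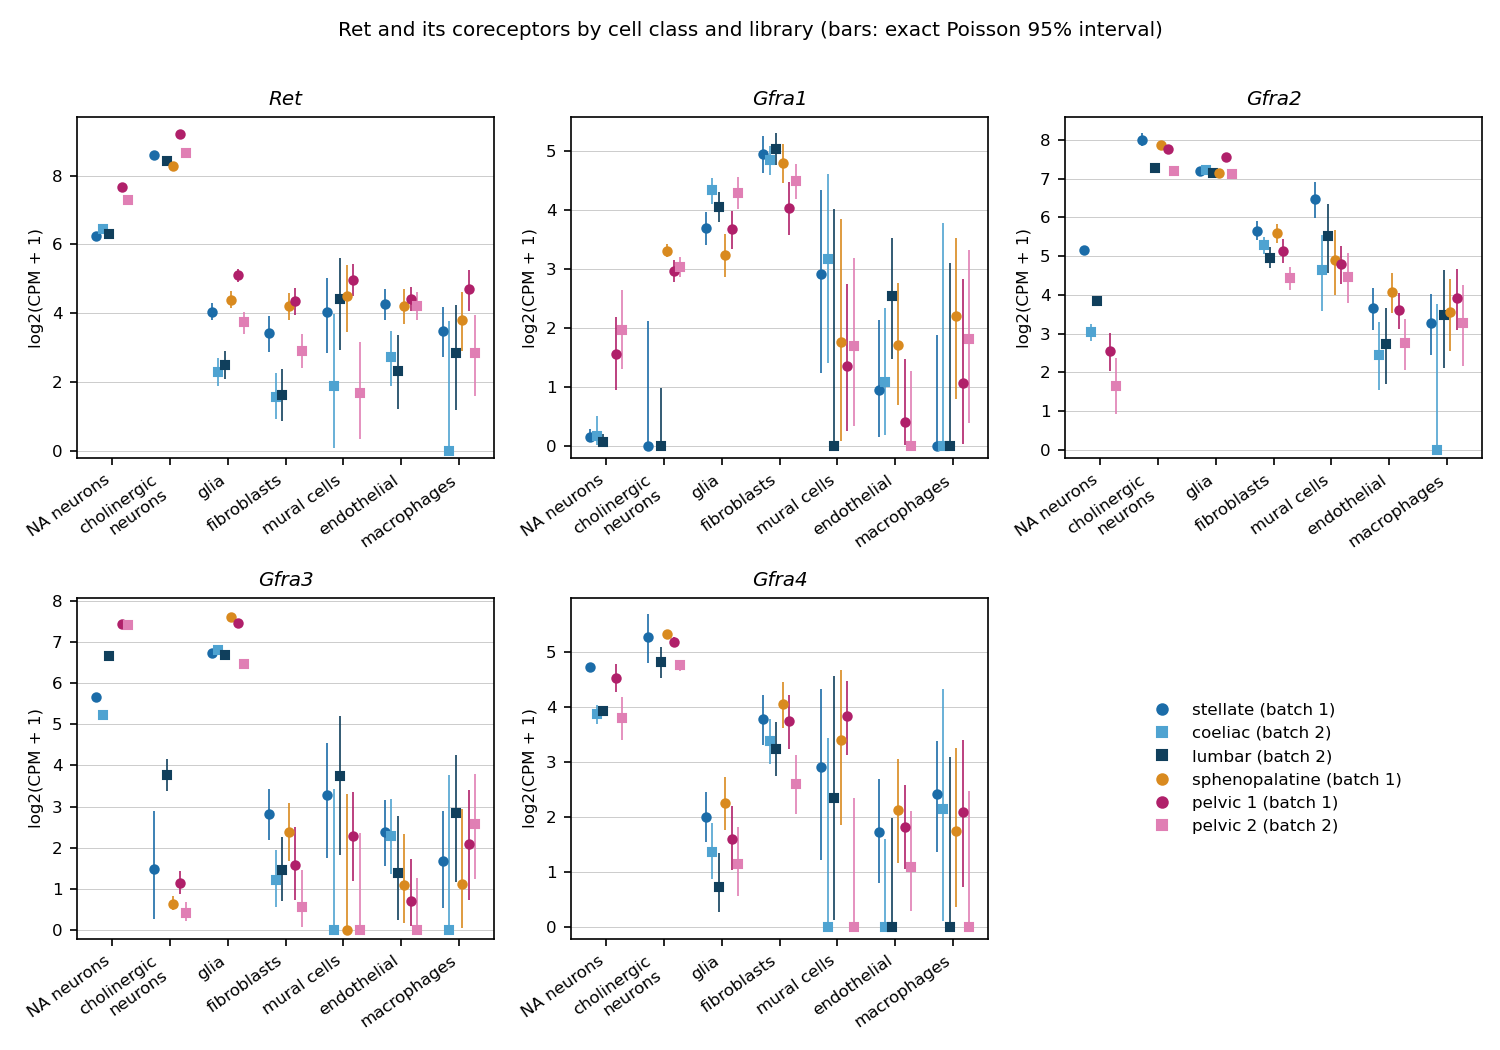
Level of Ret and the 4 coreceptors in each cell class, as log2 of CPM + 1, with 1 point per library and bars giving the exact Poisson 95% interval; circles are the first batch and squares the second. Among the classes drawn Ret and Gfra4 are highest in neurons, Gfra1 in fibroblasts, Gfra2 in cholinergic neurons and glia, and Gfra3 in noradrenergic neurons and glia.

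Coreceptors were also counted cell by cell, taking a gene as present at 2 or more UMIs. Of 2444 noradrenergic stellate neurons, 536 had Gfra2, 756 had Gfra3 and 71 had both, and 1035 had no coreceptor at this cutoff. Lumbar noradrenergic neurons were 78.0% positive for Gfra3 and 18.1% for Gfra2. Of 1651 cholinergic sphenopalatine neurons 1597 had Gfra2 and 2 had Gfra3. These shares depend on depth, which differed between libraries, and a cell without 2 UMIs is not shown to lack the gene.

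Whether a coreceptor met Ret in the same cell was counted too. Gfra2 cells also had 2 or more Ret UMIs in 92.5% of cases in cholinergic sphenopalatine neurons and in 98.7% and 96.6% in cholinergic neurons of the pelvic 1 and 2 libraries. Among all cells of these 3 classes, with or without Gfra2, the shares with Ret were 90.9%, 98.3% and 92.2%. Of noradrenergic Gfra3 cells, 83.5% and 93.9% had Ret in the pelvic libraries, but 32.1% did in the stellate, 60.2% in the coeliac and 51.4% in the lumbar library. Among all noradrenergic neurons of the pelvic 1, pelvic 2, stellate, coeliac and lumbar libraries the shares were 81.7%, 93.9%, 41.7%, 48.8% and 52.1%. Noradrenergic Gfra2 cells of the stellate, coeliac and lumbar libraries had Ret in 73.5%, 81.5% and 66.9% of cases, each above the share of Gfra3 cells. In the pelvic 1 and 2 libraries 4 and 1 noradrenergic cells had Gfra2, all with Ret. The lower shares of Gfra3 cells stand beside the lower Ret level of sympathetic noradrenergic neurons, and the stellate neurons were the shallowest. The part of depth was not tested.

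**Figure D2:**
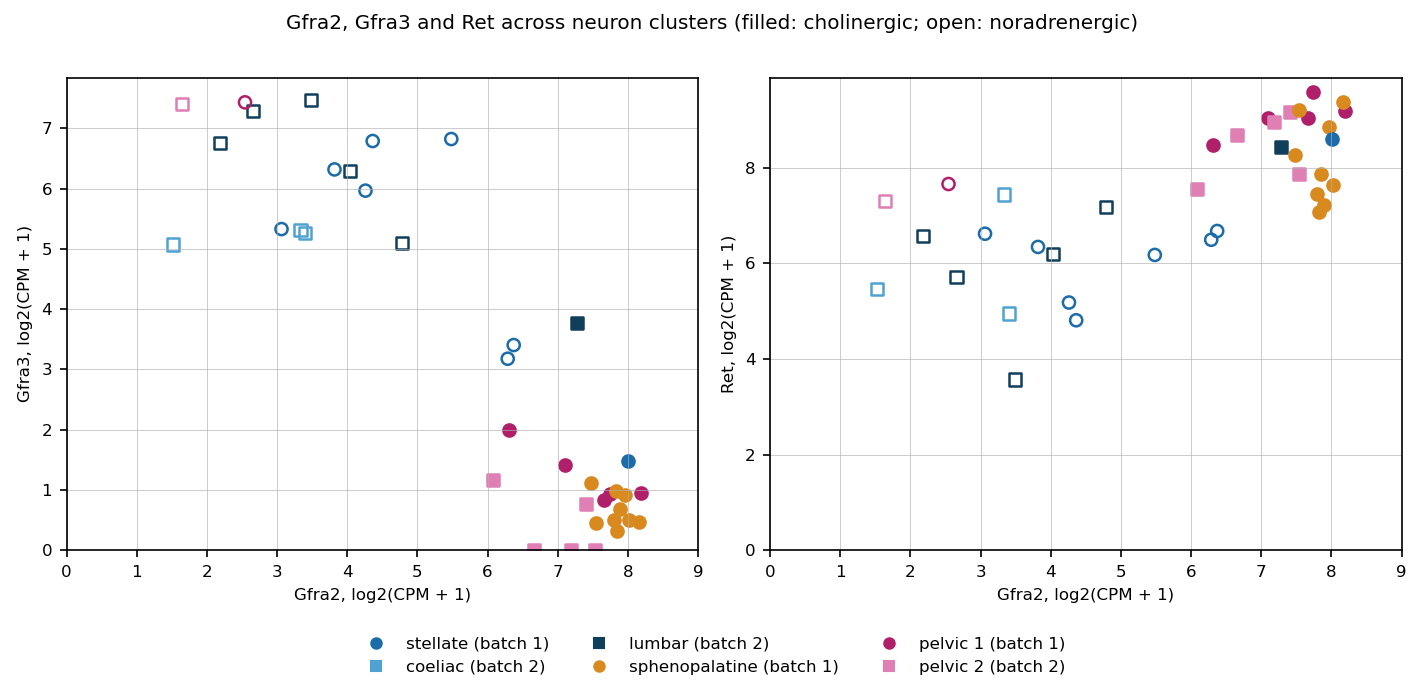
Level of Gfra2 against Gfra3 (left) and against Ret (right), each as log2 of CPM + 1, in every cholinergic (filled) and noradrenergic (open) neuron cluster of at least 20 cells, coloured by library. Cholinergic clusters lie at high Gfra2 and low Gfra3, noradrenergic clusters mostly at high Gfra3, and stellate clusters 4 and 6 (81.8 and 77.0 CPM of Gfra2, 9.58 and 8.04 of Gfra3) are noradrenergic clusters within the range of the cholinergic ones on both.

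The pelvic ganglion holds several neuron types, and both libraries supplied each. Clusters matching the marker sets of the P1, P2, P3 and P4 types were compared, each type with the mean of the other 3, on 8 sums with library as block. The clusters were built from the same cells, though without the family members, and the 2 libraries are the replicates. The P3-like cells, the only noradrenergic type, had Gfra3 at 172 and 169 CPM and Gfra2 at 4.83 and 2.12; the other 3 types had Gfra3 at 0 to 2.96 and Gfra2 at 66.6 to 291. For P3-like cells the log2 fold changes were 7.48 ± 0.22 for Gfra3 (adjusted p = 7.8e-12), −5.31 ± 0.19 for Gfra2 (1.1e-24), −1.14 ± 0.21 for Ret (0.0065) and −0.96 ± 0.15 for Gfra4 (3.2e-06). That is 4 of the 6 members tested, 1 higher and 3 lower, where 27.3% of genes were called.

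The 3 cholinergic types differed by degree. P1-like cells (284 and 156) had the most Ret of the 4 types, at 659 and 507.5 CPM, with Gfra2 at 178 and 140.3. P2-like cells (249 and 98 cells) had the most Gfra2, at 291 and 184, and their Ret of 579.5 and 232.5 differed between libraries by more than their intervals. P4-like cells (58 and 32 cells) had the least Gfra2 of the cholinergic types, at 78.2 and 66.6, the least Ret, at 356 and 188.5, and the most Gfra4, at 42.3 and 39.5. In each library the intervals of Gfra2 in P1-like, P2-like and P4-like cells did not overlap, and those of Gfra4 in P2-like and P4-like cells did in the pelvic 1 library.

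For P1-like cells the test called 4 of 6 members where 16.3% of genes were called: Ret (log2 fold change 1.22 ± 0.18, adjusted p = 0.0035), Gfra1 (1.28 ± 0.32, 0.0047; 0.24 with DESeq2), Gfra2 (2.06 ± 0.12, 5.2e-18) and Gfra3 (−2.79 ± 0.53, 0.0021). Cluster 5, with the most Gfra1 of the cholinergic pelvic clusters (41.3 and 37.6 CPM), lay outside these tests. The Gfra1 UMIs of P1-like cells were mostly in cluster 3 (57 and 76), the other P1-like cluster, cluster 2, having 4 and 9 (0.60 and 0.91 CPM). For P2-like cells it called 2 where 24% were called, Gfra2 (2.80 ± 0.11, 7.5e-23) and Gfra3 (−3.60 ± 0.58, 4.3e-04). For P4-like cells it called 2 where 27.1% were called, Gfra2 (0.45 ± 0.14, 0.014; 0.052 with DESeq2) and Gfra4 (0.65 ± 0.15, 5.6e-04). Each type is set against a mean that includes P3-like cells, so the folds of the cholinergic types carry the P3-like values for every member. For Ret these were 202 and 157 CPM, and for Gfra4 22.2 and 13.0, in the pelvic 1 and 2 libraries. The cholinergic types were not tested against each other.

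**Figure D3:**
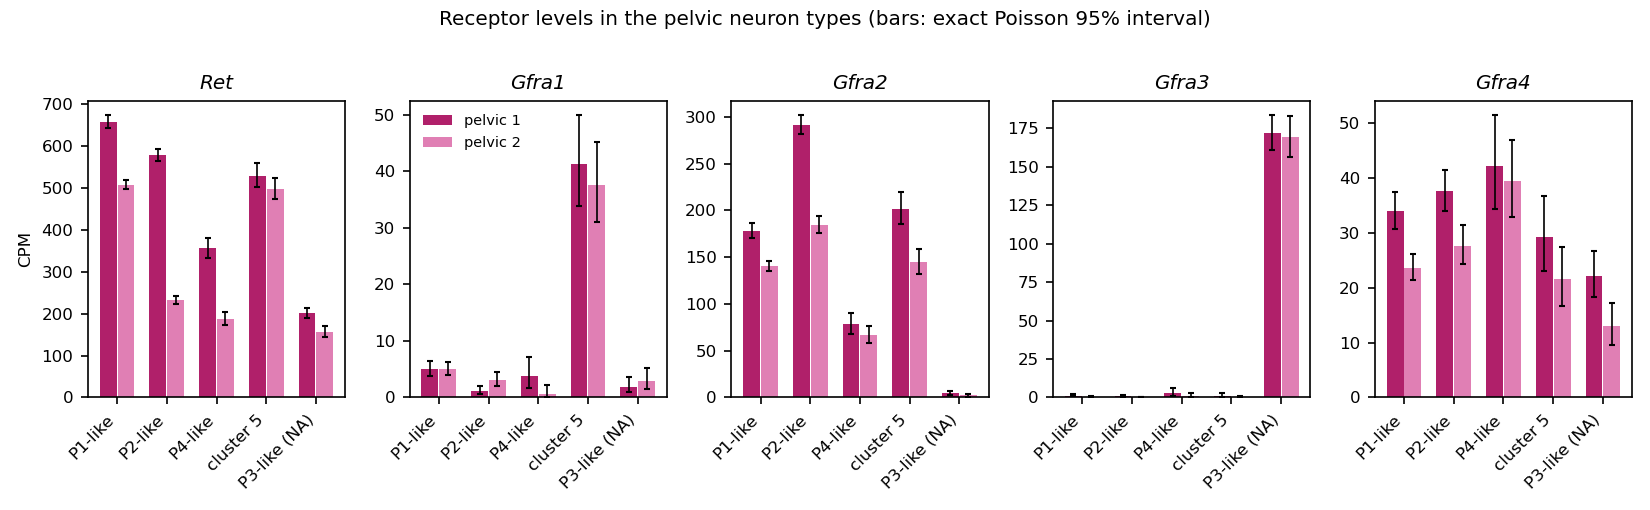
CPM of the 5 receptor genes in the pelvic neuron types, 1 bar per library with the exact Poisson 95% interval, each panel starting at 0. Gfra3 is 172 and 169 in P3-like cells and at most 2.96 in the others drawn, Gfra2 is lowest in P3-like cells, and Gfra1 is highest in cluster 5 (41.3 and 37.6).

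Across ganglia, the question was whether pelvic neurons differ in the family from sympathetic neurons. The 2 pelvic libraries were compared with the 3 sympathetic ones, with batch as a covariate. The sympathetic libraries are from 3 different ganglia, so that their spread includes differences between ganglia. All pelvic neurons together had more Ret (log2 fold change 2.26 ± 0.16, adjusted p = 1.4e-05), more Gfra1 (5.25 ± 0.37, 1.4e-05) and more Gfra4 (0.59 ± 0.16, 0.031) than sympathetic neurons. That made 3 of 7 members tested, all higher, where 10.6% of genes were called higher and 19.2% called in all. Gfra2 (2.75 ± 0.73, 0.15) and Gfra3 (−1.50 ± 0.52, 0.19) did not pass. Without the coeliac library both did (2.39, 7.2e-29 and −1.64, 2.3e-13), as they did without the lumbar library (3.19, 1.3e-08 and −1.14, 2.9e-06). The main fit had 2 residual degrees of freedom, and fewer with a library left out. Adjusted p from fits with a library left out, here and below, therefore lean on spread estimated over many genes, and their size is no measure of support. The Gfra4 call was lost without the stellate (0.085), the pelvic 1 (0.074) or the pelvic 2 library (0.37), and without the batch term (0.44).

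Pelvic neurons are mostly cholinergic and the sympathetic ones mostly noradrenergic, so the comparison was repeated among noradrenergic neurons alone. Ret was higher in the pelvic ganglion here too, at 202 and 157 CPM against 75.2, 86.7 and 77.7 (1.12 ± 0.13, adjusted p = 0.0058, and 0.065 without the batch term). These are values over whole classes, and coeliac noradrenergic cluster 3 alone held 173, above the pelvic 2 value. Gfra1 had 10 and 11 UMIs in the pelvic libraries against 8, 2 and 3 in the much larger sympathetic sums (4.67 ± 0.69, 0.012), and the pelvic UMIs lay in 3 of 131 and 3 of 33 cells. Gfra2 was lower in the pelvic ganglion, at 4.83 and 2.12 against 34.6, 7.20 and 13.3 (−2.69 ± 0.44, 0.032). Gfra3 was 172 and 169 against 49.4, 36.5 and 99.9 over whole classes, while lumbar noradrenergic cluster 2 alone held 176. The test gave 1.48 ± 0.58 with an adjusted p of 0.27, and 1.98 with 5.9e-07 without the lumbar library. Called members were 3 of 7, 2 higher and 1 lower, against 7.44% of all genes. Over 13 alternative fits, the call was lost in 5 for Gfra2, 3 for Gfra1 and 2 for Ret. No member was called without the stellate library (adjusted p 0.053, 0.087 and 0.28 for Ret, Gfra1 and Gfra2); Gfra1 and Gfra2 were also lost without either pelvic library (0.0775 and 0.39 without pelvic 1, 0.18 and 0.27 without pelvic 2).

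Within batches, where there is no replicate, noradrenergic Ret was 202 in the pelvic 1 and 75.2 in the stellate library of the first batch, and 157 in the pelvic 2 against 86.7 and 77.7 in the coeliac and lumbar libraries of the second. Gfra3 ran the same way in both, 172 against 49.4 and 169 against 36.5 and 99.9.

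The 2 pelvic libraries differed in their glial clusters. Cluster 14, led by Foxd3, Kcnh8 and Wwp1, supplied 353 of 479 glia in pelvic 2 and 7 of 1382 in pelvic 1. Pelvic and sympathetic glia differed in 1 of the 6 members tested, against 3.14% of all genes. That member was Ret, higher in pelvic glia (1.28 ± 0.18, adjusted p = 0.0046). The call was lost without pelvic 1, and without the batch term, where 0 genes were called. The glial counts of Ret stood near the neuronal RNA shares given above, and its neuronal level was itself higher in the pelvic ganglion. The part of neuronal RNA was not tested. Gfra1 (0.04 ± 0.17), Gfra2 (0.12 ± 0.12) and Gfra3 (0.16 ± 0.26) had adjusted p of 0.95, 0.72 and 0.84, Gfra3 passing without pelvic 2 (0.75, 0.041). The test of the difference between differences, neurons against glia and pelvic against sympathetic, called Gfra1 alone of 6 members (5.28 ± 0.50, adjusted p = 0.0041; 0.11 and 0.12 without pelvic 1 and pelvic 2) where 1.45% of genes were called. Gfra2 (2.95 ± 0.67, 0.093) and Gfra3 (−1.64 ± 0.40, 0.11) missed it, and passed without the stellate library (3.52, 0.0018 and −1.79, 0.022). All of these comparisons use the same 5 libraries and so share their controls.

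**Figure D4:**
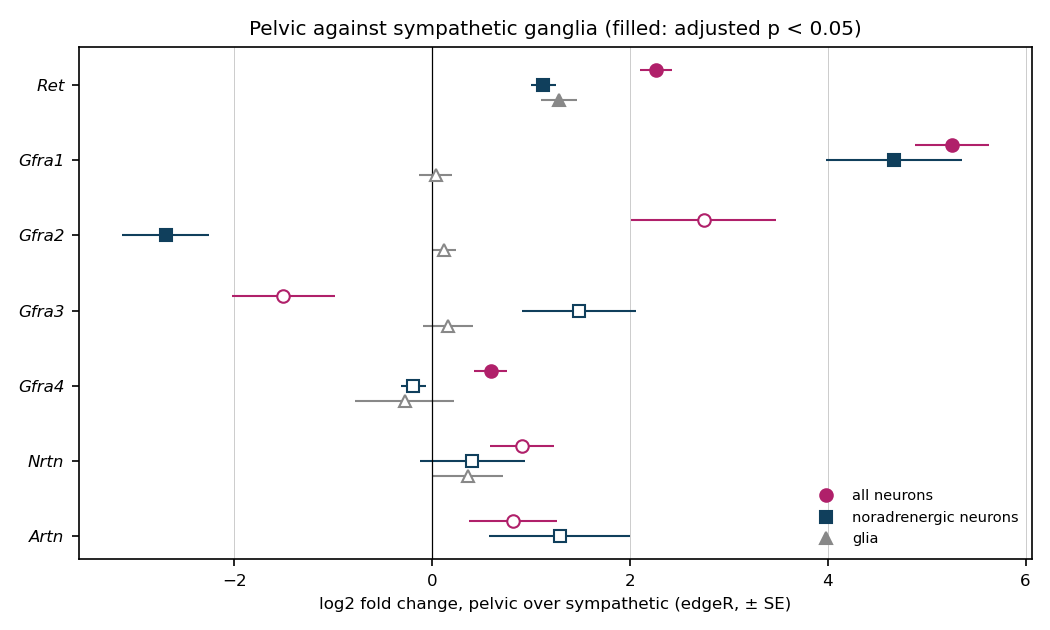
Log2 fold change of pelvic over sympathetic libraries for each member tested, with bars of 1 SE, in all neurons (circles), noradrenergic neurons (squares) and glia (triangles); filled symbols passed the threshold. Ret lies to the right in all 3, Gfra1 in both neuron comparisons, and Gfra2 has opposite signs in all neurons (2.75) and noradrenergic neurons (−2.69).

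The ligands were sparse, with 1529 UMIs of Nrtn, 290 of Artn, 81 of Gdnf and 26 of Pspn in all kept cells. Nrtn (chromosome 17, 56751325 to 56757530, minus strand) was called higher in mural cells than in the other non-neuronal classes. Mural cells held 10.9 (stellate; 5 UMIs), 50.6 (coeliac; 19), 8.21 (lumbar; 2), 4.81 (sphenopalatine; 2), 108 (pelvic 1; 138) and 54.7 (pelvic 2; 49) CPM. The log2 fold change over the other non-neuronal classes was 3.82 ± 0.51 (adjusted p = 1.6e-06). The 2 pelvic libraries and the coeliac one stood above the others; within pelvic mural cells the cluster led by Acta2 and Myh11 had 146 and 57.3 and the cluster led by Higd1b and Rgs5 had 86.4 and 49.45. A Dpt-positive fibroblast cluster added 26.9 and 10.4 in the pelvic libraries.

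Glia held Nrtn at 4.18, 4.55, 3.62, 16.1, 8.78 and 3.16 CPM, above the neurons of the same library (0.78, 0.67, 0.62, 4.59, 1.69 and 1.08) in 6 of 6 libraries. Nrtn was lower in neurons than glia by a log2 fold change of −2.16 ± 0.22 (adjusted p = 2.6e-05). The sphenopalatine ganglion had the highest value of both classes; its glia held 102 Nrtn UMIs (interval 13.2 to 19.6 CPM), an interval that overlaps none of the other glial ones. A comparison between ganglia cannot be tested with its 1 library.

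Artn (chromosome 4, 117926162 to 117929763, minus strand) was likewise called higher in mural cells, with 21.2 and 10.04 CPM in the pelvic libraries (27 and 9 UMIs), 9.62 in the sphenopalatine (4 UMIs) and 0 in the 3 sympathetic libraries. By the limit of 3 counts over the UMI total, a count of 0 among 106, 34 and 27 mural cells allows levels of up to 6.55, 7.99 and 12.3 in the stellate, coeliac and lumbar libraries, and the last lies above the pelvic 2 value. The log2 fold change of mural cells over other classes was 4.24 ± 0.85 (adjusted p = 2.2e-04, and 0.062 without pelvic 1). In the pelvic libraries the Acta2 and Myh11 cluster held 39.2 and 18.35 and the Dpt-positive fibroblasts 6.03 and 10.7. Of the 7 members tested in mural cells these 2 ligands were called, both higher, where 17.5% of genes were called higher and 28% in all.

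Gdnf (chromosome 15, 7810846 to 7837575, plus strand) and Pspn (chromosome 17, 56999457 to 57000018, minus strand) were too sparse to test. The sphenopalatine neurons had 44 Gdnf UMIs (0.579 CPM, 0.421 to 0.777), and their cluster 2, led by Tac2 and Cdh13, stood at 1.80. The neurons of the other 5 libraries had 0 to 2. The pelvic 2 library had 9 in fibroblasts, all in the Dpt-positive cluster, and glia had 0 in every library. Pspn had 17 UMIs in neurons, 1 in glia and 8 in other cells.

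**Figure D5:**
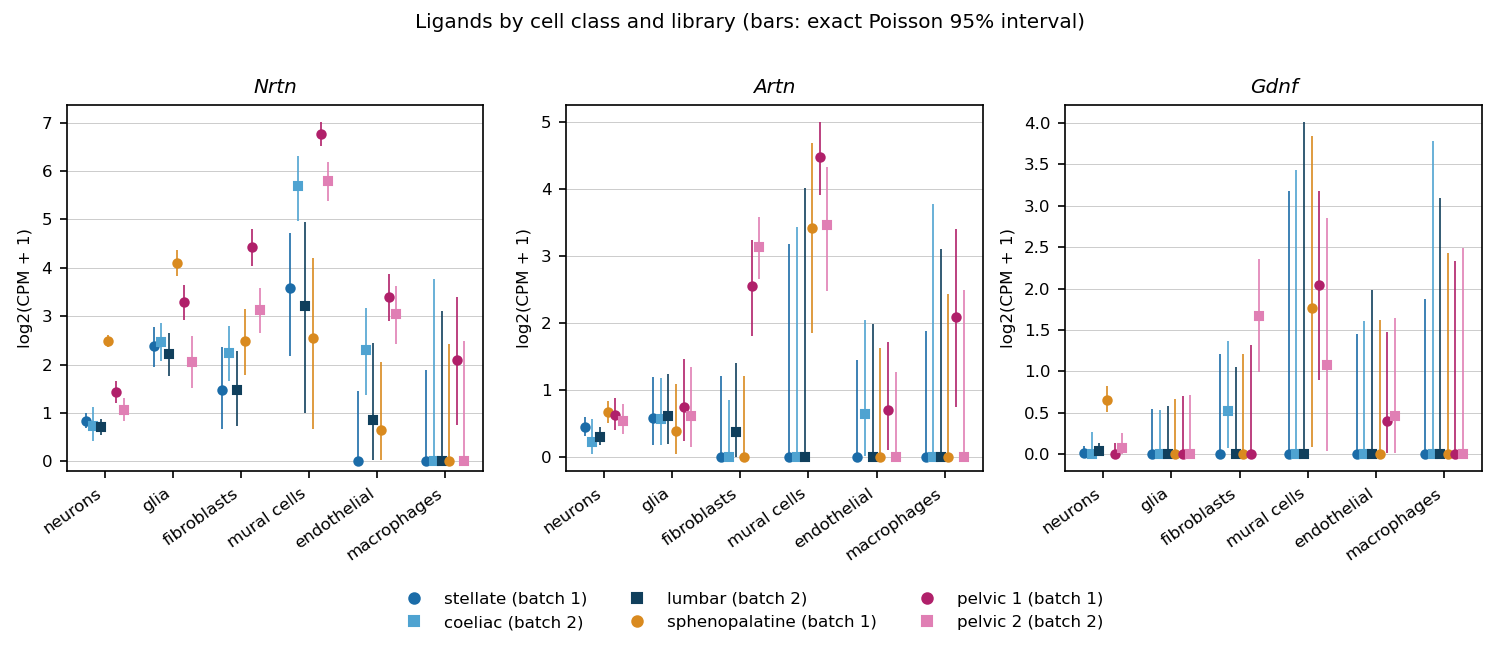
Level of Nrtn, Artn and Gdnf in 6 cell classes, as log2 of CPM + 1, with 1 point per library and the exact Poisson 95% interval. Nrtn and Artn reach their highest levels in pelvic mural cells (108 and 21.2 CPM in pelvic 1), and Gdnf stays at 3.14 CPM or less.

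Among the other non-neuronal classes, glia were called for 4 of 7 members tested (3 higher, Gfra1, Gfra2 and Gfra3, and Gfra4 lower) against 41.2% of genes, Gfra4 (−1.16 ± 0.36, adjusted p = 0.0094) being lost without the sphenopalatine library (0.23). Fibroblasts were called for 3, Gfra1 (2.55 ± 0.26, adjusted p = 8.2e-10), Gfra2 (0.74 ± 0.22, 0.0088; lost without the sphenopalatine library, 0.060, without the block, 0.0503, and with resolution doubled, where the log2 fold change was 0.08 and the adjusted p 0.79) and Gfra4 (1.98 ± 0.30, 1.6e-06), against 41.5%. The Apod- and Ccl11-positive fibroblast cluster had Gfra1 at 44.5 CPM and the Dpt-positive one at 1.59. Endothelial cells were called for 5 of 7 against 50.1% of genes, with all 4 coreceptors lower and Ret higher (0.66 ± 0.27, 0.042), the last lost without the stellate, sphenopalatine, coeliac or pelvic 2 library (0.12, 0.095, 0.087 and 0.21), without the block (0.70), without the low-count filter (0.074) and with resolution doubled (0.057). Gfra2 and Gfra3 were lost there without pelvic 1 (−0.16 and −0.25), Gfra3 without the lumbar library (0.058) or the low-count filter (0.064), and Gfra4 without the sphenopalatine one (0.11). Endothelial Ret stood at 3.83% to 20.5% of the neuronal level, beside 2.43% to 11.4% for Stmn2, and the part of neuronal RNA was not tested. Macrophages were called for 2 lower, Gfra1 (−2.38) and Gfra2 (−1.51), against 50.6%; without pelvic 1 the Gfra2 call was lost and its log2 fold change was 0.034. In myelinating Schwann cells (46 in pelvic 1 and 23 in the sphenopalatine library) edgeR called 0 of 7 members, against 10.9% of genes; 2 had an unadjusted p under 0.05, Ret and Gfra1, and DESeq2 called Gfra1 (2.42, adjusted p = 0.0054).

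Other genes of the pathway were read from lists of 8 further coreceptors and modifiers, 20 adaptors and effectors, and 11 targets and feedback genes, with 4 neurotrophin receptors for comparison. Between cholinergic and noradrenergic neurons 2 of 5 tested modifiers were higher, Gas1, which encodes a protein related to the GFRα family (3.96 ± 0.63, adjusted p = 0.019), and the sorting receptor Sorl1 (3.05 ± 0.16, 2.7e-04). Ncam1, an alternative GDNF receptor (−0.75 ± 0.17, 0.041), and Sdc3, a heparan sulphate proteoglycan (−0.57 ± 0.11, 0.021), were lower. Of the 11 targets edgeR called 0 there, 3 having an unadjusted p under 0.05, and of the 18 adaptors tested 2 were higher and 1 lower, where 7.94% of all genes were called. The medians of the lists were −0.09 for modifiers, −0.08 for adaptors and 0.09 for targets, beside −0.03 over all genes.

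In P1-like pelvic cells 6 of 11 targets were called, all higher, where 16.3% of genes were called. They were led by the ETS factor Etv4 (5.03 ± 0.59, adjusted p = 7.2e-09), the feedback inhibitor Spry1 (2.31 ± 0.22, 6.0e-10) and Etv1 (2.01 ± 0.31, 0.031). The list's median was 0.43, beside 0.01 over all genes. Whether target levels follow the Ret level was not tested. In P2-like cells 2 were higher and 5 lower (24% of genes called), with Etv1 at −3.00 ± 0.42 (0.018). In P4-like cells 1 was higher and 1 lower (27.1% of genes called), the lower being Spry1 (−2.99 ± 0.47, 6.7e-06). In P3-like cells 3 were higher and 1 lower (27.3% of genes called), with Etv1 (2.06 ± 0.32, 0.021) and Dusp6, an ERK phosphatase (1.93 ± 0.20, 3.4e-09), among those higher.

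P3-like cells had less Gas1 (−5.08 ± 0.29, adjusted p = 5.5e-18), Ntrk3 (−4.31 ± 0.15, 8.6e-25) and Sorl1 (−3.46 ± 0.17, 2.4e-19). In pelvic against sympathetic neurons Gas1 (5.94 ± 0.21, 2.6e-07), Ntrk3 (4.69 ± 0.21, 4.6e-06) and Ntrk2 (3.14 ± 0.48, 0.036) were higher. Among noradrenergic neurons alone 1 of 11 targets was higher in the pelvic ganglion and 1 lower, where 7.44% of genes were called. The higher was Etv1 (2.65 ± 0.13, 3.1e-04) and the lower Spry2 (−1.35 ± 0.21, 0.014). In glia against the other non-neuronal classes Ncam1 (3.60 ± 0.20, 1.9e-13) and Ntrk2 (2.48 ± 0.20, 2.3e-10) were higher and Spry1 lower (−4.10 ± 0.72, 2.9e-05).

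The genes whose levels ran most like each receptor were sought over 14 neuron types (noradrenergic and cholinergic neurons of the other ganglia, and P1-like to P4-like cells of each pelvic library), by Pearson correlation of log2 levels among genes reaching 50 CPM. The types share libraries, depth and transmitter, so the correlations are descriptions. Ret ran most like Btg1 (0.931), Bcl2 (0.9155) and Gna13 (0.895), Gfra2 most like Vapb (0.93), Pmp22 (0.93) and Rab22a (0.92), Gfra3 most like Insm2 (0.97), Arel1 (0.93) and Slc31a1 (0.93), and Gfra4 most like BC029722 (0.96), Jph3 (0.925) and Laptm4b (0.922). Gfra1 and the ligands stayed under the level of 10 CPM in all 14 types.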

How the data were processed

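The authors deposited 10x Genomics count matrices, in which each value is a whole-number count of UMIs per gene and cell, made with Cell Ranger 6.0.1 on mm10 per the submitters' notes. Cells with 1500 to 11000 genes and at most 15% mitochondrial UMIs were kept. Neurons were separated from glia and doublets by marker scores (sctransform 0.4.2, Seurat 5.3.0). Each set was clustered (leidenalg 0.10.2, 30 components, 20 neighbours) without the family members and pathway genes. The resolution was 0.5 for neurons and 1 for non-neuronal cells, and variable genes were ranked with scanpy 1.11.5. Scrublet called 348 doublets, which were kept and left out as an alternative. Counts were summed per library and class of at least 20 cells and tested with the edgeR 4.0.16 quasi-likelihood test with TMM and Benjamini-Hochberg adjustment over all genes tested, a gene being called at 0.05; DESeq2 1.42.0 was the alternative. The SE is the absolute log2 fold change divided by the square root of F. Library was a block within libraries, and batch a covariate between ganglia. The test script was checked on simulated data with 200 changed genes. Gene positions are GENCODE M21, GRCm38. All 9 members are named, with the pathway genes of the fixed lists and the 3 genes most like each member. The members and lists were chosen with earlier results of these data known, and the rule naming transmitters (15% of the maximum) after cluster values were seen. A few results for other genes are not reported here.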

Additional observations from a re-analysis of the deposited data

Results flagged for a closer look

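The neuron-glia difference in Gfra1 was not the same in pelvic and sympathetic ganglia, by the test of the difference itself (log2 5.28, edgeR quasi-likelihood test, adjusted p = 0.0041). Pelvic neurons held 6.08 and 6.58 CPM, and the sympathetic neurons had 19, 3 and 6 UMIs in all. The pelvic level was uneven: cholinergic clusters ran from 0.60 to 41.3 in pelvic 1 and from 0.62 to 37.6 in pelvic 2. Cluster 5, of 107 cells, was the highest in both. The call was lost without pelvic 1 (adjusted p = 0.11) or pelvic 2 (0.12).

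A stellate neuron cluster that the transmitter markers left unnamed (cluster 11, 28 cells led by Adgrg6, Pnoc and Slc5a7) entered the comparisons of all neurons but not those between transmitters or among noradrenergic neurons. It held 880 Ret UMIs, or 713 CPM (exact Poisson 95% interval 666 to 761), above the 386 of the cholinergic stellate neurons. Its Gfra2 stood at 169 CPM, and it had 1 UMI of Gfra3.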

How the results depend on the processing

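Of the fold changes of single members, 1173 kept their direction and side of the threshold under the alternatives, 45 came to pass it, 55 no longer passed it and 36 changed sign. In 3 of the 36 the member was called in the main test or under the alternative, namely Gfra2 (2.28) and Gfra3 (4.31) in myelinating Schwann cells with the clustering resolution doubled and Gfra2 in macrophages without pelvic 1 (−1.58 to 0.034 over the libraries left out). The other 33 were called in neither. With DESeq2 they were Artn in glia (−0.30) and macrophages (−0.32) and Nrtn in P4-like cells (−0.026), without the replicate block Artn in glia (−0.44) and Nrtn in P4-like cells (−0.0050), and without TMM Gfra4 in P1-like cells (−0.0081). With resolution doubled they were Gfra2 in mural cells (−0.095) and Ret in P2-like cells (−0.046), and with the top Scrublet scores left out Artn in macrophages (−0.069). In pelvic against sympathetic glia they were Gfra1 without the batch term (−0.046) and, with glia chosen by marker score, Gfra2 (−0.0045) and Gfra4 (0.51). Leaving out 1 library in that comparison gave −0.048 to 0.12 for Gfra1, −0.084 to 0.39 for Gfra2, −0.31 to 0.75 for Gfra3, −0.53 to 0.076 for Gfra4 and −0.39 to 1.09 for Nrtn. In the non-neuronal classes it gave −0.013 to 1.31 for Artn in glia, −0.70 to 1.79 for Gfra4 and −8.27 to 1.03 for Nrtn in myelinating Schwann cells, −0.30 to 1.32 for Ret and −1.52 to 0.22 for Gfra3 in fibroblasts, −0.62 to 1.11 for Nrtn in endothelial cells, −1.15 to 0.40 for Gfra3 and −0.18 to 0.91 for Gfra4 in mural cells, and −1.24 to 0.49 for Gfra3 and −3.47 to 0.83 for Artn in macrophages. No cause was tested. The numbers of members called moved as follows. With DESeq2 they were 1 in myelinating Schwann cells, 4 between cholinergic and noradrenergic neurons, 1 in P4-like cells, 5 in pelvic against sympathetic neurons and 3 in the neuron-glia difference between those ganglia. Myelinating Schwann cells also had 1 without TMM, with Scrublet calls left out or with the top 5% of Scrublet scores left out, and 3 with resolution doubled, where macrophages had 4; without the low-count filter endothelial cells had 3. Without the batch term noradrenergic neurons had 1 and glia 0. Without the replicate block for library, P1-like cells had 1, P3-like 2 and P4-like 0. Leaving out 1 library gave 0 to 1 members in myelinating Schwann cells, 3 to 4 in endothelial cells, 1 to 2 in macrophages, 1 to 2 between transmitters, 2 to 6 in pelvic against sympathetic neurons, 0 to 4 in noradrenergic neurons, 0 to 2 in glia and 0 to 3 in the neuron-glia difference.

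Over all genes, myelinating Schwann cells went from 1472 calls to 3739 with resolution doubled and to 451 to 1435 with 1 library left out; transmitters from 1163 to 1981 with DESeq2 and 337 without the block; P1-like cells from 2155 to 1345 and 453, P2-like from 3169 to 1977 and 596, P3-like from 3604 to 1079 and P4-like from 3579 to 1123 without the block; pelvic against sympathetic neurons from 3022 to 1057 without the batch term; noradrenergic neurons from 1045 to 2452 without the filter and 178 without the batch term; glia from 409 to 855 and 0; and the neuron-glia difference from 218 to 587 with DESeq2, 391 without the filter and 89 without the block. Leaving out 1 library gave 385 to 897, 640 to 4051, 123 to 1782, 74 to 649 and 0 to 691 calls for the transmitter, neuron, noradrenergic, glia and neuron-glia comparisons. The share of pelvic neurons with Ret, 97.9%, was 52.7% thinned to 2000 UMIs and 94.8% at 2 or more UMIs; for Gfra2 in sphenopalatine neurons 98.7% became 35.7% and 96.3%. Ganglia could not be paired with each other, because the labels link no libraries of different ganglia beyond their batch. Comparisons within libraries used library as a block. P1-like to P4-like fits without a pelvic library have no residual degrees of freedom and were not run. Leaving out top Scrublet scores, shared barcodes or mixed neuron clusters was chosen after seeing the data.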
